A study of Homo sapiens with 4 samples.

Results

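The transcript response to 3 h of cholate was compared between Caco-2 cells on Transwell inserts and the same cells on plastic plates. For each array feature, a set of short oligonucleotides that reports 1 stretch of a transcript, the log2 response on the plate (cholate minus vehicle) was subtracted from the log2 response on Transwell. A value below 0 therefore marks a transcript whose response was more upward on the plate, or more downward on Transwell, and a value above 0 marks the reverse. Members were all features with 1 annotated gene symbol and a mean over the 4 arrays at or above the 40th percentile, a log2 intensity of 4.84. They numbered 13613 of the 33297 features on the array and stood for 12900 genes. The rule uses the annotation and the mean intensity, not the difference of responses, but the mean rests on the same 4 arrays: 17 members were above this floor on 1 array only, and of the 18 members at least 1 log2 above 0, 2 were, both through plate vehicle.

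Caco-2 is an established cell line from a human colorectal adenocarcinoma, and confluent cultures come to resemble small intestinal enterocytes. The 4 conditions were vehicle on a regular plate, 2 mM cholate on a regular plate, vehicle on a collagen-coated Transwell insert, and 2 mM cholate in the apical compartment of such an insert, all for 3 h. All conditions shared the same line, and each was measured on 1 array with RNA pooled from 3 samples, so the spread between cultures was not measured. Differentiation time is given as 21 days on all 4 labels, but by the growth protocol plates were used at 14 days and inserts at 14 to 21 days. The sources used here do not say whether the vehicle was the calcium-free buffer in which cholate was dissolved. Insert membranes and plate wells also differed in diameter (6.5 and 34.8 mm). Each difference of responses uses all 4 arrays once and leaves 0 residual degrees of freedom, so every value below is a description with no test, no error between cultures and no p-value.

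Cholate is the anion of cholic acid, a primary bile acid that the liver makes from cholesterol and that the ileum takes up from its apical side. Bile acids act as detergents and as ligands of the nuclear receptor FXR, which in ileal cells controls bile acid transporters and the hormone gene FGF19. On a plate a polarised monolayer lies on impermeable plastic and can be reached from above only, whereas an insert gives it separate apical and basolateral compartments with medium on both sides. Early transcript changes after a stimulus usually include immediate early genes, which need no new protein synthesis, and short-lived RNAs. Small nucleolar RNAs, which guide chemical modification of ribosomal RNA, are mostly cut from introns of genes for abundant housekeeping proteins.

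Array medians over all features lay between 5.64 and 5.73. All 13 measured intestinal epithelial markers were members and their differences lay between -0.44 and 0.44, with CDX2 (-0.44), an intestinal transcription factor, and KRT20 (0.44), a keratin of differentiated enterocytes, at the ends. Of 8 measured goblet, Paneth and enteroendocrine markers 0 were members, against 2 of 5 leukocyte markers (CD14 and CSF1R), 1 of 5 endothelial markers (PECAM1) and 5 of 9 fibroblast markers. The 5 fibroblast markers had a median of -0.10, with 3 below 0, PDGFRB (-0.31), COL1A1 (-0.22) and COL1A2 (-0.10), and 2 above, COL3A1 (0.07) and PDGFRA. PDGFRA had the largest difference, 0.74, with 6.41 in plate vehicle, 5.63 in plate cholate, 5.88 in Transwell vehicle and 5.85 in Transwell cholate. The part of other cell types in the results was not tested.

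Over the 13613 members the difference of responses centred near 0 and was modest for most transcripts. Its median was 0.02 log2, 74.4% of members lay within 0.25 log2 of 0, and the central 95% ran from -0.48 to 0.51. At least 1.5-fold above 0 lay 215 members (1.58%) and at least 1.5-fold below 0 lay 209 (1.54%). At least 1 log2, a 2-fold difference, above 0 lay 18 members (0.132%), and 34 lay that far below 0 (0.25%). Values ran from -1.75 for SNORD14E, a small nucleolar RNA, to 1.43 for CAPN6, a calpain-like protein without the protease activity of its family.

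Responses were larger on the plate. On Transwell the median absolute response was 0.0915 log2 and on the plate 0.140, a ratio of 1.53, and the plate response was the larger in 64.1% of members. Across members the responses correlated at r of 0.456, a description over features that share 4 arrays and are not replicates. Counted with 1 feature a gene, 192 genes were at least 1.5-fold higher in cholate on the plate (1.49%) and 303 lower (2.35%). On Transwell 46 were that much higher (0.357%) and 95 lower (0.736%). Because the plate response enters with a minus sign, a transcript that responded strongly on the plate and weakly on Transwell necessarily has a large difference of the opposite sign.

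**Figure D1:**
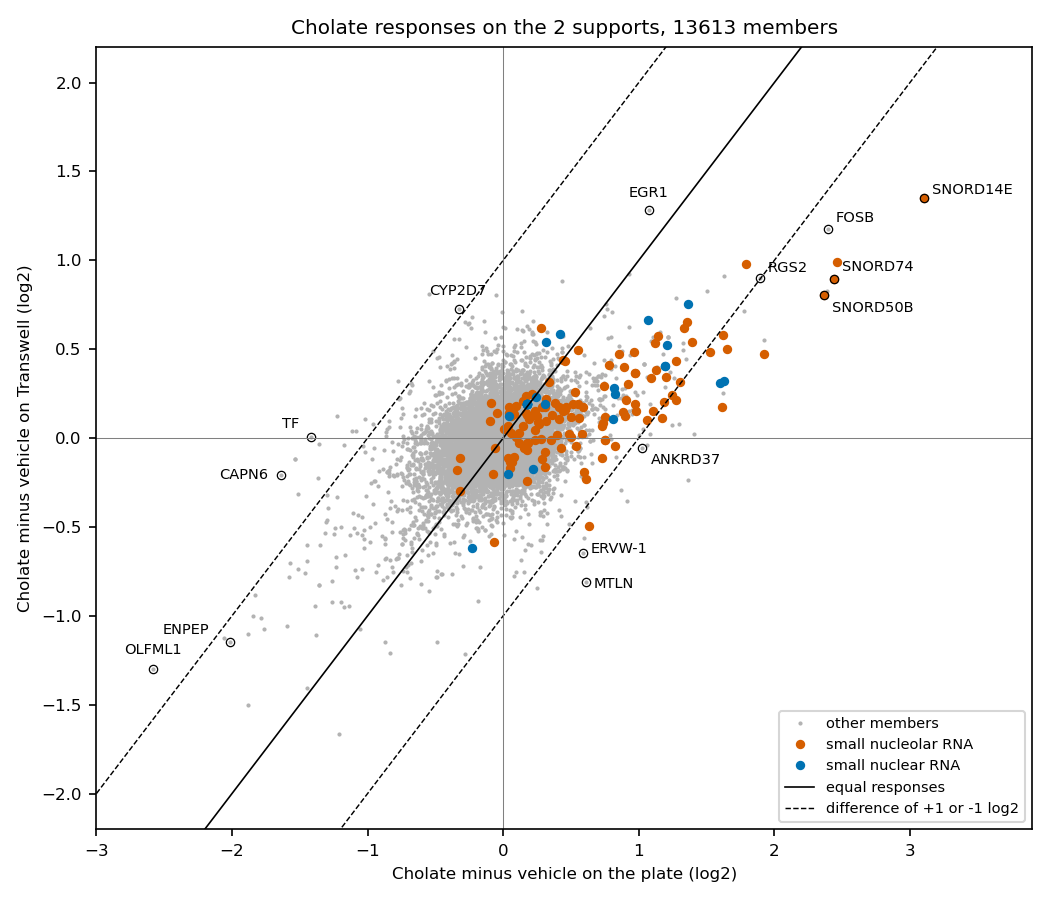
Log2 response to cholate on the plate (horizontal axis) against that on Transwell (vertical axis), 1 point for each of the 13613 members; the solid line marks equal responses and the dashed lines a difference of 1 log2. Orange small nucleolar RNAs and blue small nuclear RNAs spread to the right below the solid line, out to SNORD14E at 3.10 and 1.35, while CAPN6, TF and OLFML1 lie to the left above it.

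In most large differences the plate response was the larger: it exceeded the Transwell response in size in 181 of the 215 members at least 1.5-fold above 0 and in 172 of the 209 below. Of the 215 members at least 1.5-fold above 0, the plate response was below 0 in 213, and in 108 only the plate response was itself at least 1.5-fold, against 13 for Transwell alone, 15 for both and 79 for neither. Of the 209 below 0, the plate response was above 0 in 206, with 113 past 1.5-fold on the plate alone, 12 on Transwell alone, 14 on both in the same direction, 2 in opposite directions and 68 on neither. For each of the 52 members at least 1 log2 from 0, the array that stood apart was taken as the one whose removal left the smallest range over the other 3. By construction this array belongs to the support with the larger absolute response, so counts of it only restate which response was larger. The array apart was a plate array in 47 of 52 (90.4%). These features were picked by a difference computed from the same 4 values and share the 4 arrays, so the share is a description of them, and 7 of the 18 above 0 and 5 of the 34 below had a value under the floor. Among the 18 above 0 the array apart was plate vehicle in 13, plate cholate in 3 and Transwell cholate in 2. The other 3 arrays lay within 0.5 log2 of each other in 9 of these 13 and 2 of these 3. Among the 34 below 0 it was plate cholate in 24, plate vehicle in 7, Transwell cholate in 2 and Transwell vehicle in 1. The other 3 arrays lay within 0.5 log2 in 9 of the 24 with plate cholate apart and 6 of the 7 with plate vehicle apart. Over all 13613 members the shares were 25.3% for plate vehicle, 38.8% for plate cholate, 17.0% for Transwell vehicle and 18.9% for Transwell cholate. Where plate vehicle alone stands apart, a displaced vehicle pool and a true plate response cannot be told apart with 1 array a condition. The same holds where plate cholate alone stands apart, also for genes whose vehicle values were close.

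Large differences were more frequent at low intensity. With members ranked by mean intensity into 5 equal groups, 5.91% of the dimmest group were at least 1.5-fold from 0 and 0.771% of the brightest, with standard deviations across features of 0.306 and 0.179. Of the 52 members at least 1 log2 from 0, 24 lay in the dimmest group and 4 in the brightest. Nearest the intensity floor, CYP2E1 (mean 4.85, difference 0.09) and TFAP2A (0.09) lay just inside, and CTSF (-0.05) and CD164L2 (0.50) just outside.

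Small nucleolar RNAs had the largest share of members below 0 of any RNA class. Of 123 member genes of this class (175 were measured), 105 lay below 0 (85.4%, against 46.1% of all 12900 genes) and 39 lay at least 1.5-fold below (31.7%, against 1.46%), while 0 lay at least 1.5-fold above (1.59% of all genes did). Their median difference was -0.36, from a median response of 0.44 on the plate and 0.14 on Transwell. On the plate 47 of the 123 were at least 1.5-fold higher in cholate (1.49% of all genes were) and on Transwell 8 (0.357%). At least 1 log2 below 0 lay 13 of them (0.248% of all genes did). Many of these RNAs come in near-identical copies, so a value can mix several of them, and no oligonucleotide sequence was used here to separate them.

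C/D box members, which guide methylation of ribosomal RNA, and H/ACA box members, which guide conversion of uridine to pseudouridine, both leaned the same way. Of 68 C/D box RNAs (SNORD genes) 26 were at least 1.5-fold below 0 (38.2%), with a median of -0.43. Of 54 H/ACA box RNAs (SNORA genes) 13 were (24.1%), with a median of -0.29. This division by symbol was added after values were seen. Among the C/D box RNAs, SNORD14E read 7.71 in plate vehicle, 10.82 in plate cholate, 7.74 in Transwell vehicle and 9.09 in Transwell cholate, responses of 8.60-fold and 2.55-fold. SNORD50B read 7.88, 10.25, 8.13 and 8.93 in the same order, a difference of -1.56. SNORD52 read 7.71, 9.33, 7.92 and 8.10, so that its response on Transwell was only 0.18 against 1.61 on the plate. In all 3, plate cholate was the highest array and the vehicle arrays were within 0.25 log2 of each other. Among the H/ACA box RNAs, SNORA41 read 5.22, 6.40, 5.18 and 5.29, a difference of -1.06. SNORA33 (-0.98), SNORA28 (-0.96) and SNORA50A (-0.95) followed, each with a plate response between 1.06 and 1.18 and a Transwell response between 0.10 and 0.21. The other end of the class held SNORA70D (0.34), SNORD13 (0.29), the guide for acetylation of the small ribosomal RNA, and SNORD96A (0.21).

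The 7 measured small nucleolar RNAs cut from introns of GAS5, a growth-arrest transcript whose spliced form does not code for a protein, all lay at least 1.5-fold below 0. Their median difference was -1.04, from median responses of 1.62 on the plate and 0.58 on Transwell. SNORD74 read 8.45, 10.89, 9.00 and 9.90 in plate vehicle, plate cholate, Transwell vehicle and Transwell cholate, a difference of -1.55. SNORD75 read 8.09, 10.55, 8.54 and 9.53, a difference of -1.47. In both, cholate was higher on either support, and the plate pair was the farther apart because its vehicle value was lower and its cholate value higher. SNORD78 and SNORD81 each had a difference of -1.04, SNORD44 of -0.99, SNORD79 of -0.87 and SNORD77 of -0.81. These 7 share 1 host transcript and are not independent of each other.

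The measured genes that hold small nucleolar RNAs in their introns had differences near 0. By RefSeq intervals on GRCh38.p14, with strand not considered, 70 of the 123 small nucleolar RNAs lay inside 51 other member genes, taken as hosts. The 70 RNAs had a median difference of -0.37 and 21 were at least 1.5-fold below 0. The 51 hosts had a median of 0.01, a range of -0.37 to 0.48, and 0 past 1.5-fold in either direction. Of all genes 1.59% lay that far above 0 and 1.46% below, so 0 of 51 is near the general share. The small nucleolar RNA lay below its host in 60 of 70 pairs. On the plate the RNA's response was above its host's in 63 of 70 pairs (medians 0.44 and -0.05), and on Transwell in 55 of 70 (0.14 and -0.03). HSPA8, the constitutive heat shock cognate chaperone, read 13.25, 13.19, 13.43 and 13.37 in plate vehicle, plate cholate, Transwell vehicle and Transwell cholate, a difference of -0.01, while SNORD14E (-1.75) and SNORD14C (-1.45) lie in its interval. HSPA8 is among the brightest genes, where large differences were rare. The other 53 small nucleolar RNAs had no host among the members, a median difference of -0.32 and 18 at least 1.5-fold below 0. They include SNORD50B, SNORD52 and all 7 of the GAS5 introns, since the 3 features that name GAS5 each name a small nucleolar RNA too, so GAS5 itself is not in the host comparison.

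Other host pairs likewise had a host near 0. EEF1B2, a translation elongation factor subunit and dimmer than HSPA8, read 7.72, 7.75, 8.02 and 8.08, a difference of 0.02, against -1.06 for SNORA41 and -1.01 for SNORD51 within it. NCL, nucleolin, had a difference of 0.16, against -0.85 for SNORD82 and -0.78 for SNORA75. TCP1, a chaperonin subunit, had 0.05, against -0.84 for SNORA20 and -0.71 for SNORA29. CNOT1, the scaffold of a deadenylase complex, had -0.13, against -0.95 for SNORA50A and -0.75 for SNORA46. NCL, TCP1 and CNOT1 belong, with HSPA8, to the brightest group. The difference was not common to every host: the 3 small nucleolar RNAs inside RABGGTB, a prenyltransferase subunit, had a median of -0.19, and the 3 inside SNHG17 had -0.08. A separate list of host genes, chosen by name, held 7 members with a median of -0.01, the lowest being ZFAS1 (-0.16), which holds SNORD12C (-1.16).

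**Figure D2:**
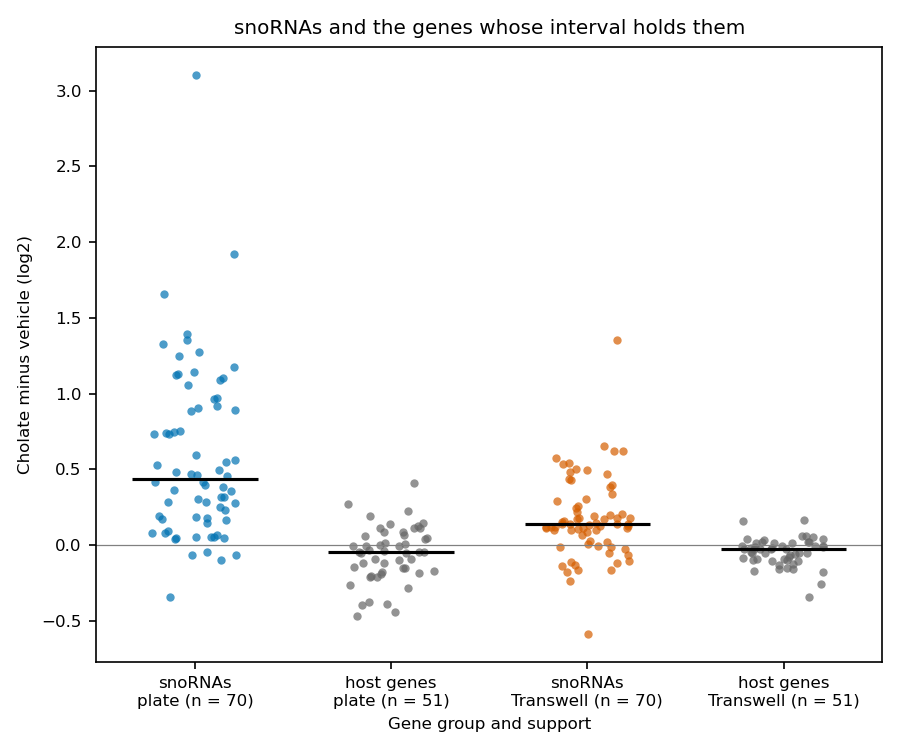
Log2 response to cholate (vertical axis) of 70 small nucleolar RNAs and of the 51 genes whose RefSeq interval holds them, on each support; each point is 1 gene and each bar a median. On the plate the RNAs have a median of 0.44 and the host genes -0.05; on Transwell these are 0.14 and -0.03.

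Spliceosomal small nuclear RNAs, which recognise splice sites, were a smaller class of 14 members. Their median difference was -0.47, from median responses of 0.81 on the plate and 0.27 on Transwell, and 5 were at least 1.5-fold below 0 (35.7%, against 1.46% of all genes). A variant U1 gene, RNVU1-15, read 6.27, 7.90, 6.69 and 7.01 in plate vehicle, plate cholate, Transwell vehicle and Transwell cholate, a difference of -1.31. RNVU1-1 followed at -0.79. Among RNAs of the minor spliceosome, which removes a rare class of introns, RNU11 stood at -0.70, RNU4ATAC at -0.68 and RNU6ATAC at -0.61, whereas RNU12 stood at 0.23. RNU2-1, of the major spliceosome, was the brightest of the class and stood at 0.02.

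MicroRNA precursors showed no common lean. Of 52 members, 28 lay below 0 (53.8%, against 46.1% of all genes) and the median was -0.02. At least 1.5-fold below 0 lay 3 (5.77%, against 1.46%) and at least 1.5-fold above lay 1 (1.92%, against 1.59%). The array reports the region of the precursor or its primary transcript, not the mature microRNA. Mature sequences are given for the 5 genes described next, with the seed (bases 2 to 8) in capitals, because 2 of the genes make the same mature product yet differ in the sign of their value. Sequences and positions are from RefSeq on GRCh38.p14, all on the minus strand.
hsa-miR-194-5p: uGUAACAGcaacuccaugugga
hsa-miR-191-5p: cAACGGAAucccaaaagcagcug
hsa-miR-425-3p: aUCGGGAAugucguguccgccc
hsa-miR-15a-5p: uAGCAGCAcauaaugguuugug

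MIR194-1 (mature 5p at chr1:220118206-220118227) and MIR194-2 (chr11:64891404-64891425) encode the same hsa-miR-194-5p, an epithelial microRNA of the intestine. MIR194-1 read 4.96 in plate vehicle, 5.83 in plate cholate, 5.85 in Transwell vehicle and 5.56 in Transwell cholate, a difference of -1.16 in which plate vehicle stood apart below the others. MIR194-2 read 6.14, 6.01, 5.80 and 6.18, a difference of 0.51, and was picked for this pairing after values were seen. The neighbour of each within its cluster, MIR215 and MIR192, differed by -0.09 and 0.22. MIR191 (mature 5p at chr3:49020672-49020694) read 6.20, 7.43, 6.19 and 6.56, a difference of -0.86. MIR425 (mature 3p at chr3:49020159-49020180) read 5.54, 7.17, 5.38 and 6.29, a difference of -0.71. Both of these neighbours on chromosome 3 were highest in plate cholate and had near-equal vehicle values. MIR15A (mature 5p at chr13:50049167-50049188) read 6.75, 5.44, 6.82 and 6.29, a difference of 0.78 with plate cholate lowest. The 4 mature sequences shown share no seed.

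Replication-dependent histone genes, which make unpolyadenylated transcripts during S phase, spread widely in both directions. This set was formed by symbol after values were seen and held 49 members with a median of -0.00. At least 1.5-fold below 0 lay 10 (20.4%, against 1.46% of all genes) and at least 1.5-fold above lay 3 (6.12%, against 1.59%). The 24 dimmer genes had a median of -0.21 and the 25 brighter ones 0.08. H4C9 read 5.24, 7.16, 5.09 and 5.64 in plate vehicle, plate cholate, Transwell vehicle and Transwell cholate, a difference of -1.37. H1-1, a linker histone, read 4.99, 6.40, 5.13 and 5.15, a difference of -1.39. H2AC11 read 8.00, 9.78, 7.79 and 8.50, a difference of -1.07. These 3 were highest in plate cholate and had vehicle arrays within 0.25 log2 of each other. H2AC14 (-0.99) differed in pattern, since its plate vehicle value of 4.35 was below the intensity floor and both Transwell arrays read 6.06 or more.

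At the other end, H2BC13 read 6.96, 6.36, 6.76 and 6.89, a difference of 0.73, and H2BC14 read 10.28, 9.67, 10.51 and 10.57, a difference of 0.66. The bright linker histones H1-5 (11.34, 10.79, 11.51 and 11.52, a difference of 0.57) and H1-4 (0.50) were likewise lowest in plate cholate. On Transwell the 49 responses ran from -0.20 to 0.71. On the plate 11 genes were at least 1.5-fold higher (1.49% of all genes were) and 4 lower (2.35%). Histone genes of 1 family are near-identical in their coding parts, so single values are uncertain.

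**Figure D3:**
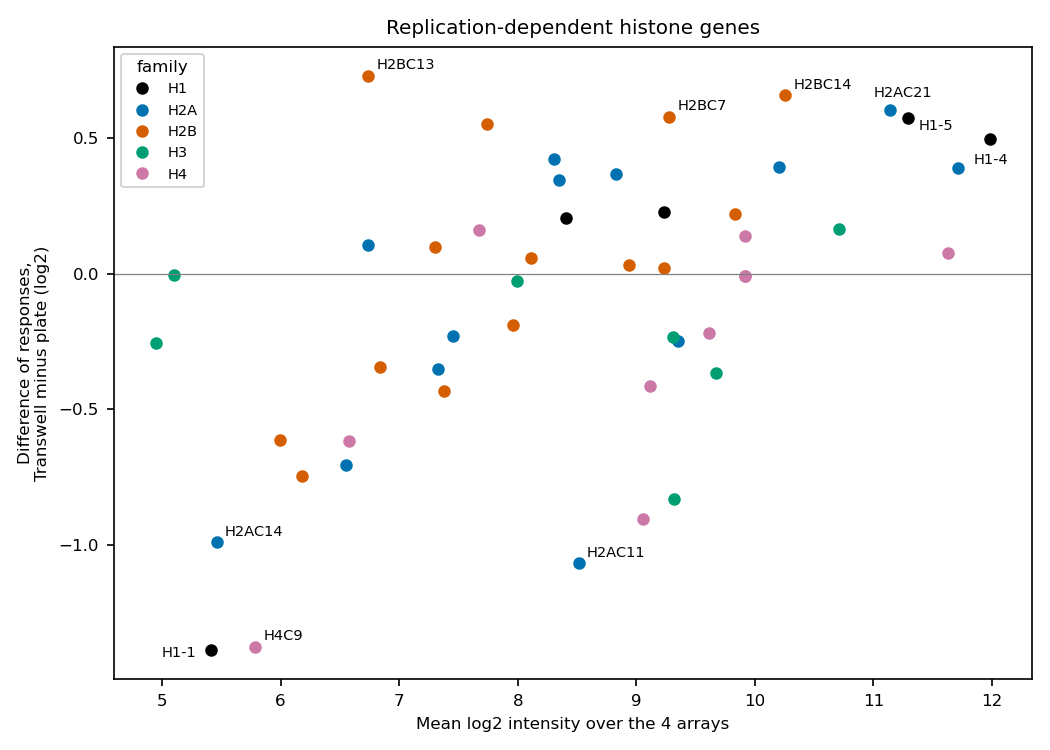
Difference of responses (vertical axis, log2) against mean log2 intensity over the 4 arrays (horizontal axis) for 49 replication-dependent histone genes, coloured by family. Genes of low intensity such as H1-1 and H4C9 reach -1.39 and -1.37, and bright genes such as H2AC21, H1-5 and H1-4 lie between 0.50 and 0.60.

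Immediate early genes went both ways, with more members below 0 than above. Of 44 members, 29 lay below 0 (65.9%, against 46.1% of all genes) and the median was -0.15, from median responses of 0.34 on the plate and 0.22 on Transwell. At least 1.5-fold below 0 lay 3 (6.82%, against 1.46%), and the 1 at least 1.5-fold above (2.27%, against 1.59%) is near the share of all genes. FOSB, an AP-1 subunit, read 6.14, 8.54, 6.23 and 7.41 in plate vehicle, plate cholate, Transwell vehicle and Transwell cholate, a difference of -1.21. RGS2, a regulator that shortens G protein signals, read 7.51, 9.41, 7.05 and 7.95, a difference of -0.99. JUN, another AP-1 subunit, read 8.27, 9.52, 8.16 and 8.50, a difference of -0.92. All 3 had the highest value in plate cholate. The vehicle values of FOSB and JUN were within 0.25 log2 of each other across supports, whereas for RGS2 plate vehicle was the higher (7.51 against 7.05). FOS (9.77, 10.61, 9.67 and 9.92) stood at -0.58 and ATF3, a stress-induced bZIP factor, at -0.55.

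EGR1, a zinc finger factor of the same early wave, did not share this. It read 10.34, 11.41, 8.59 and 9.87, responses of 1.08 and 1.28 and a difference of 0.21, with the Transwell vehicle value lowest. HBEGF, an EGF receptor ligand, had a difference of -0.01, JUNB of -0.04 and the phosphatase gene DUSP1 of 0.07. CCN2, a matricellular protein gene and target of the coactivator YAP, was the 1 at least 1.5-fold above 0: it read 9.04, 8.89, 7.32 and 7.79, a difference of 0.63. DUSP6 and MYC, at 0.53 and 0.50, were lower in cholate on the plate (responses of -0.68 and -0.52) and near 0 on Transwell (-0.15 and -0.02).

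Targets of hypoxia-inducible factor (HIF), the oxygen-regulated transcription factor that binds a short core motif in promoters, lay mostly below 0. Of 37 members, 30 lay below 0 (81.1%, against 46.1%) and 8 at least 1.5-fold below (21.6%, against 1.46%). At least 1.5-fold above lay 0, near the share of all genes (1.59%). The median difference was -0.13, from a median response of 0.13 on the plate and 0.01 on Transwell. On the plate 6 of the 37 were at least 1.5-fold higher in cholate, against 1.49% of all genes. On Transwell 0 were, which is near the share of all genes there (0.357%).

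ANKRD37, an ankyrin repeat protein gene known as a HIF target, read 6.75 in plate vehicle, 7.77 in plate cholate, 7.76 in Transwell vehicle and 7.70 in Transwell cholate, a difference of -1.08. Plate vehicle was thus low and the other 3 arrays were close together. BHLHE40, a transcriptional repressor, read 8.34, 9.40, 8.92 and 9.03, a difference of -0.95, with plate vehicle again lowest and plate cholate above both Transwell arrays. DDIT4, an inhibitor of the growth kinase mTORC1, read 9.28, 10.47, 8.85 and 9.13, a difference of -0.91. CXCR4, a chemokine receptor, read 4.85, 5.88, 5.16 and 5.21, a difference of -0.98. For these last 2, plate cholate stood apart above the other arrays. HILPDA, a lipid droplet protein gene (-0.68), MXI1, a MYC antagonist (-0.65), ADM, a vasodilator peptide gene (-0.60), and PFKFB3, whose product activates phosphofructokinase (-0.60), made up the 8. Well known targets had smaller differences: VEGFA, an angiogenic growth factor, stood at -0.17 and the glucose transporter SLC2A1 at -0.13, and CA12, a carbonic anhydrase gene, stood at 0.49.

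The promoters of the 3 brightest of the 4 lowest HIF targets are shown because the list, put together by gene name, is of targets of this factor. Each sequence is the 250 bases before the annotated start, from RefSeq on GRCh38.p14, plus strand: chr4:185396591-185396840 for ANKRD37, chr3:4979187-4979436 for BHLHE40 and chr10:72273674-72273923 for DDIT4. Capitals mark the HIF core, searched as ACGTG or GCGTG on either strand.
ANKRD37: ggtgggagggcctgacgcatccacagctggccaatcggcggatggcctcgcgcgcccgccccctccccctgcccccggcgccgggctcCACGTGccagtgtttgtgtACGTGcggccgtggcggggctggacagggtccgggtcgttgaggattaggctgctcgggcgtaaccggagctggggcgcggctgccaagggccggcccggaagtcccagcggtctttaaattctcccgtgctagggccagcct
BHLHE40: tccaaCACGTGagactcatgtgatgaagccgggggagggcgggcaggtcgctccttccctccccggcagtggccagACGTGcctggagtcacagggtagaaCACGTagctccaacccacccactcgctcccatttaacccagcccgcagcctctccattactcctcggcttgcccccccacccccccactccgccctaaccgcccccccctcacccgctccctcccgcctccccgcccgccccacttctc
DDIT4: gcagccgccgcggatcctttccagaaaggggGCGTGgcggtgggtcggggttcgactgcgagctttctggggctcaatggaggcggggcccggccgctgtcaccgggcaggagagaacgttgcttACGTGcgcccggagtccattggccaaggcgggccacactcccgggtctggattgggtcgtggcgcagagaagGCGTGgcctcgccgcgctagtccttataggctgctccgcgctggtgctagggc

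ANKRD37 held 3 matches, whose first bases lie at -162, -161 and -143 from the start, BHLHE40 held 4, at -245, -244, -174 and -149, and DDIT4 held 3, at -219, -125 and -53. The first 2 matches of ANKRD37 and of BHLHE40 overlap as both strands of a palindrome. CXCR4, the dimmest of the 4 lowest and not shown, has several annotated starts, whose windows held 1, 0 and 2 matches. Of the 29 HIF targets with a promoter in the table, 24 held at least 1 match (82.8%), as did 63.4% of 10236 member genes and 47.4% of all 27305 genes with a promoter. A match describes letters in this window and says nothing of binding in these cells.

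For the immediate early genes the CArG box, the serum response factor motif, was searched in the same windows. It was present in 2 of 32 members with a promoter (6.25%), in 1.58% of member genes and in 1.44% of all genes. The promoter of EGR1 (chr5:138465229-138465478, plus strand) is shown because it held 2 matches, at -105 and -83, in capitals. The windows of FOSB, JUN and RGS2 held 0, as did those of most list members. Boxes farther upstream were not searched, and a link between the box and the difference of responses was not tested.
EGR1: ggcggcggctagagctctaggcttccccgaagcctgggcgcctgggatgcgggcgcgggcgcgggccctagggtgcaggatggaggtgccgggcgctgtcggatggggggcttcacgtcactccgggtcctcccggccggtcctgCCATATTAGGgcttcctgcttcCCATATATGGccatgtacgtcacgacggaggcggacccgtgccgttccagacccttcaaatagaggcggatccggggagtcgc

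Of the stress lists, heat shock genes lay mostly below 0 and the integrated stress response had a median near 0. In the integrated stress response, which slows translation through phosphorylation of an initiation factor, 25 members had a median of -0.02 and 2 were at least 1.5-fold below 0 (8.00%, against 1.46% of all genes), DDIT4 and CEBPB. CEBPB, a bZIP transcription factor, read 7.40, 8.23, 7.44 and 7.57 in plate vehicle, plate cholate, Transwell vehicle and Transwell cholate, a difference of -0.71. DDIT3, the gene of CHOP, had near-equal responses of 0.64 and 0.62 and a difference of -0.02. Of 18 heat shock members 13 lay below 0 (72.2%, against 46.1% of all genes), with a median of -0.08. At least 1.5-fold below lay 3 (16.7%, against 1.46%), the chaperone gene HSPA1L (-0.65) and the co-chaperone genes DNAJB1 (-0.61) and DNAJB4 (-0.59). That far above lay 0, near the share of all genes (1.59%). DNAJB1 read 10.27, 11.16, 10.22 and 10.50, highest in plate cholate. HMOX1, the haem-degrading oxygenase, stood at -0.10 with responses of -0.69 and -0.79. Among single members of other lists, the polo-like kinase gene PLK2 (-0.79; 7.64, 8.96, 7.16 and 7.70) was, like DNAJB1, highest in plate cholate. The metallothionein gene MT1X (-0.79) read 7.15, 7.80, 7.64 and 7.50, with plate vehicle standing apart below the others. The glycolytic enolase ENO2 (-0.58) and the clock gene PER1 (-0.57) were under 1.5-fold.

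Transcripts with the largest values above 0 were mostly high in plate vehicle alone. TF, the iron carrier transferrin, read 7.31 in plate vehicle against 5.89, 6.07 and 6.08 on plate cholate, Transwell vehicle and Transwell cholate, a difference of 1.42. TKTL1, a transketolase-like protein gene, read 8.01 against 6.50, 6.58 and 6.27, a difference of 1.20. CDH6, a cadherin gene, read 7.77, 6.41, 5.96 and 5.73, a difference of 1.14. These 3 were well above the floor on all arrays, and plate vehicle exceeded the other 3 arrays by more than these 3 differed from each other. SLC38A4, an amino acid transporter gene, read 8.77, 7.65, 6.97 and 7.01, a difference of 1.15, so that plate cholate was still above both Transwell arrays.

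CAPN6 (6.63, 4.99, 4.80 and 4.59), HP, the haemoglobin scavenger haptoglobin (5.97, 4.74, 4.66 and 4.78; a difference of 1.36), and RNF182, a ubiquitin ligase gene (5.80, 4.63, 4.51 and 4.47; 1.13), lay near or under the floor on the arrays other than plate vehicle. HP and RNF182 were above the floor in plate vehicle alone, so they are members through the same high value that makes their difference large. At such low intensity a fall on Transwell may be compressed, although lower values do occur, as in CAPN6 (4.80 to 4.59 on Transwell). The keratin-associated gene KRTAP3-1 (1.42) is read by 2 features with identical values and had the same shape. Other shapes were rarer. FAM230B, a noncoding RNA (5.83, 4.47, 5.33 and 5.29; 1.33), and IFT70B, a ciliary transport gene (4.98, 3.89, 5.40 and 5.44; 1.12), were low in plate cholate alone. In both, the plate cholate value that makes the difference large lay under the floor. MCUB, an inhibitory subunit of the mitochondrial calcium uniporter, stood at 1.13, with a plate cholate value of 4.68, also under the floor. EFHD1, a mitochondrial calcium-binding protein gene, stood at 1.10 with a response of -0.78 on the plate and 0.32 on Transwell. CYP2D7, a cytochrome P450 pseudogene (5.84, 5.52, 6.16 and 6.88; 1.05), was the highest in Transwell cholate, and RNA of close relatives may enter its value. ALG1L1P, a pseudogene at 1.04, completed the 15 highest genes.

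**Figure D4:**
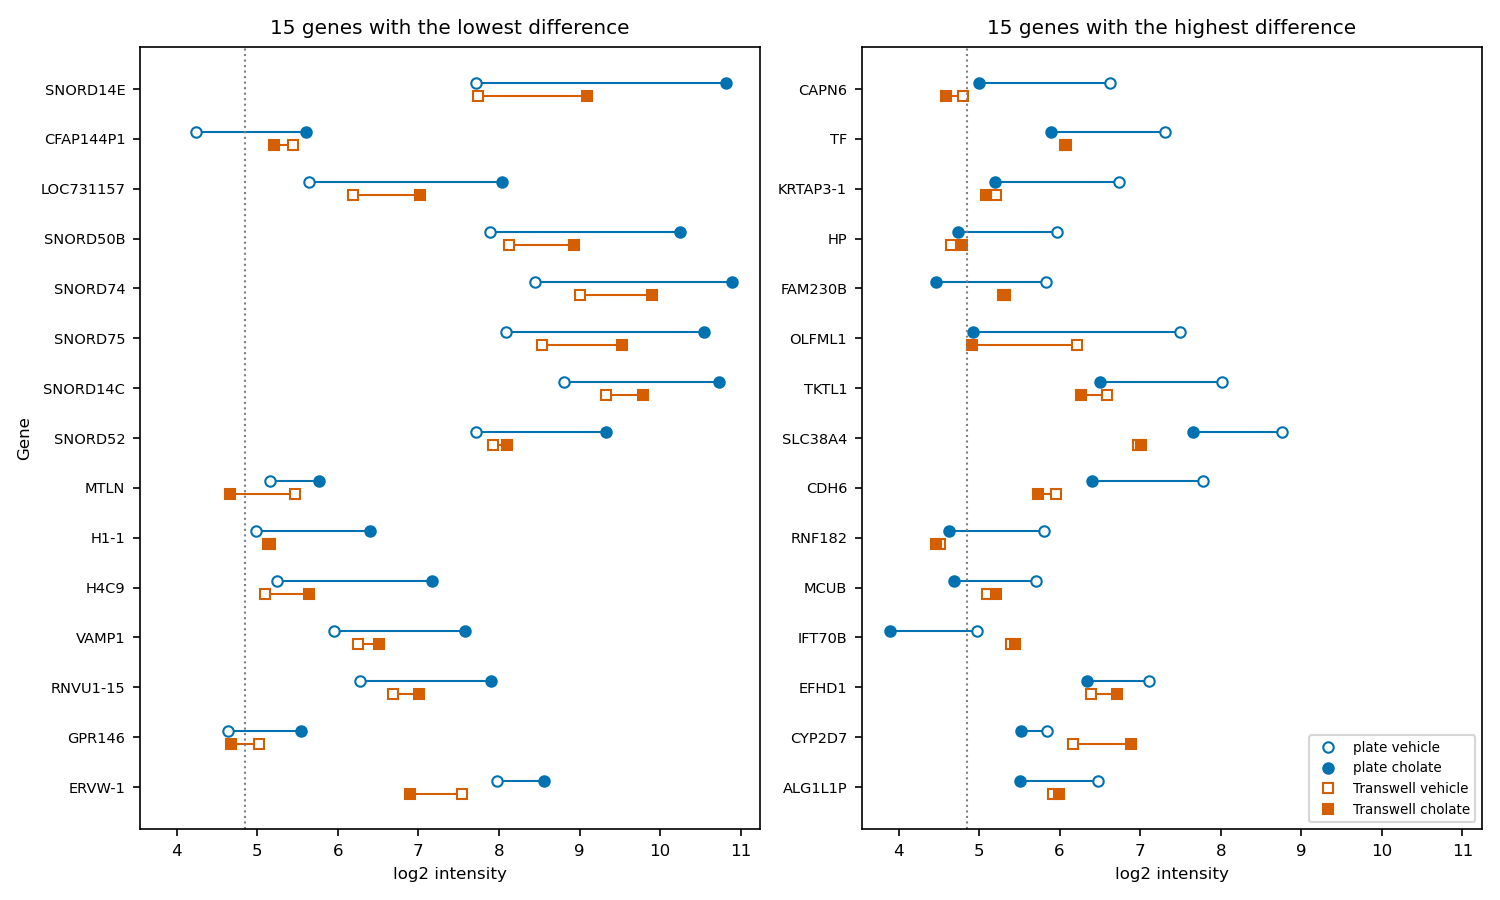
Log2 intensity (horizontal axis) on each of the 4 arrays for the 15 genes with the lowest and the 15 with the highest difference of responses; a line joins vehicle (open) and cholate (filled) on 1 support and the dotted line is the floor of 4.84. On the left the long lines are plate responses toward higher values, as for SNORD14E from 7.71 to 10.82, and on the right the open plate circle lies to the right of most other symbols, as for TF at 7.31.

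Some genes were lower in cholate on both supports and more so on the plate. OLFML1, an olfactomedin-like secreted protein gene, read 7.50, 4.92, 6.21 and 4.91, responses of -2.58 and -1.30 and a difference of 1.28. Both cholate values met near the floor, from vehicle values that differed between supports. ENPEP, the brush border aminopeptidase that cleaves angiotensin, read 9.26, 7.24, 8.60 and 7.45, a difference of 0.87. ACTG2, a smooth muscle type actin gene, read 8.47, 6.59, 7.29 and 6.18, a difference of 0.78, and VGLL1, a TEAD cofactor gene, read 9.07, 7.23, 8.11 and 7.11, a difference of 0.84. In each of these 4, the 2 cholate values lay within 0.5 log2 of each other while plate vehicle was the highest array. SPARC, a matricellular collagen-binding protein gene, read 8.18, 6.88, 7.39 and 7.07, a difference of 0.98.

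Interferon-stimulated genes went both ways. Of 23 members 3 were at least 1.5-fold above 0 (13%, against 1.59% of all genes), the membrane antiviral gene IFITM3 (7.97, 6.62, 7.03 and 6.43; 0.74), the ISG15 ligase gene HERC5 (0.71) and IFIT2 (0.68), and 1 was below (4.35%, against 1.46%), IFI6 (10.83, 10.35, 9.63 and 8.48; -0.66), and the median was -0.00. Trophoblast and placental genes, 17 members, also went both ways. CAPN6, VGLL1 and XAGE3 (0.71) lay at least 1.5-fold above 0 (17.6%, against 1.59% of all genes). ERVW-1 and ERVFRD-1 lay that far below (11.8%, against 1.46%).

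MTLN and ERVW-1 were the 2 members whose responses were each at least 1.5-fold and of opposite direction. MTLN, which encodes a mitochondrial micropeptide, read 5.16 in plate vehicle, 5.76 in plate cholate, 5.46 in Transwell vehicle and 4.66 in Transwell cholate, a difference of -1.42, with the last value under the floor. ERVW-1, an endogenous retroviral envelope gene that serves cell fusion in the placenta, read 7.97, 8.56, 7.54 and 6.89, a difference of -1.23. Its functional relative ERVFRD-1 read 9.24, 8.97, 8.81 and 7.59, a difference of -0.94. In all 3 Transwell cholate was the lowest array.

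Cell cycle and replication genes lay more often above 0 than below. Of 46 members 33 lay above 0 (71.7%, against 53.9% of all genes), 13 lay below and 0 were at least 1.5-fold from 0. Of all genes 1.59% lay that far above and 1.46% below, so 0 of 46 is near the general share. The median difference was 0.13, from median responses of -0.25 on the plate and -0.13 on Transwell. The highest were MCM10, a replication initiation factor gene (7.86, 7.43, 7.80 and 7.87; 0.49), GINS1, a subunit gene of the replicative helicase (0.47), and CCNB2, a mitotic cyclin gene (0.45), and the lowest was CDT1, a replication licensing factor gene (-0.33). Of 22 members of the actin, SRF and YAP target list 16 lay above 0 (72.7%), with a median of 0.04 and 3 at least 1.5-fold above (13.6%, against 1.59%), ACTG2, CCN2 and ANKRD1 (0.61).

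Genes of bile acid handling were split evenly about 0. Of 31 measured genes of bile acid transport and FXR output 22 were members, with a median of 0.02 and 11 on each side of 0. UGT2B4, a bile acid glucuronidating enzyme gene (6.84, 6.15, 6.55 and 6.49; 0.62), was the 1 at least 1.5-fold above 0 (4.55%, against 1.59% of all genes) and VDR, the vitamin D receptor (6.50, 6.75, 7.19 and 6.83; -0.62), the 1 below (4.55%, against 1.46%). SLC51A, part of the heteromeric bile acid exporter at the basolateral membrane, read 6.69, 7.28, 9.02 and 9.09, a difference of -0.52, with the vehicle levels themselves 2.33 log2 apart. NR0B2, the FXR-induced repressor SHP, stood at 0.41 with a value of 4.77 in Transwell vehicle, under the floor. FABP6, the ileal bile acid binding protein, stood at 0.18. FGF19 was not a member, since all 4 of its values, from 4.69 to 4.80, lay under the floor.

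The 22 members of cholesterol synthesis and its SREBP control had the narrowest range of any of the lists with 20 or more members, from -0.15 to 0.14, with median responses of 0.11 on the plate and 0.12 on Transwell. Chylomicron and lipid absorption genes leaned below 0: of 21 members 13 lay below (61.9%, against 46.1%). Their median was -0.10, from median responses of 0.14 on the plate and 0.05 on Transwell. At least 1.5-fold from 0 lay 0 of the 21, near the general share (1.59% of all genes above and 1.46% below). The lowest was DGAT1 (-0.27), an enzyme gene of triglyceride synthesis, which read 9.94, 10.25, 9.97 and 10.01. MTTP, the lipid transfer protein of chylomicron assembly, stood at 0.06, although its levels differed between supports (7.30, 7.36, 10.14 and 10.27). FABP2, the fatty acid binding protein of enterocytes (4.49, 4.71, 5.52 and 6.17), stood at 0.44, the highest of the list. Tight junction genes, 24 members, had a median of 0.04 and CLDN23, a claudin gene, as the largest at 0.41. Ribosomal protein genes, 21 members, had a median of -0.03, and respiratory chain genes, 26 members, of -0.01.

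**Figure D5:**
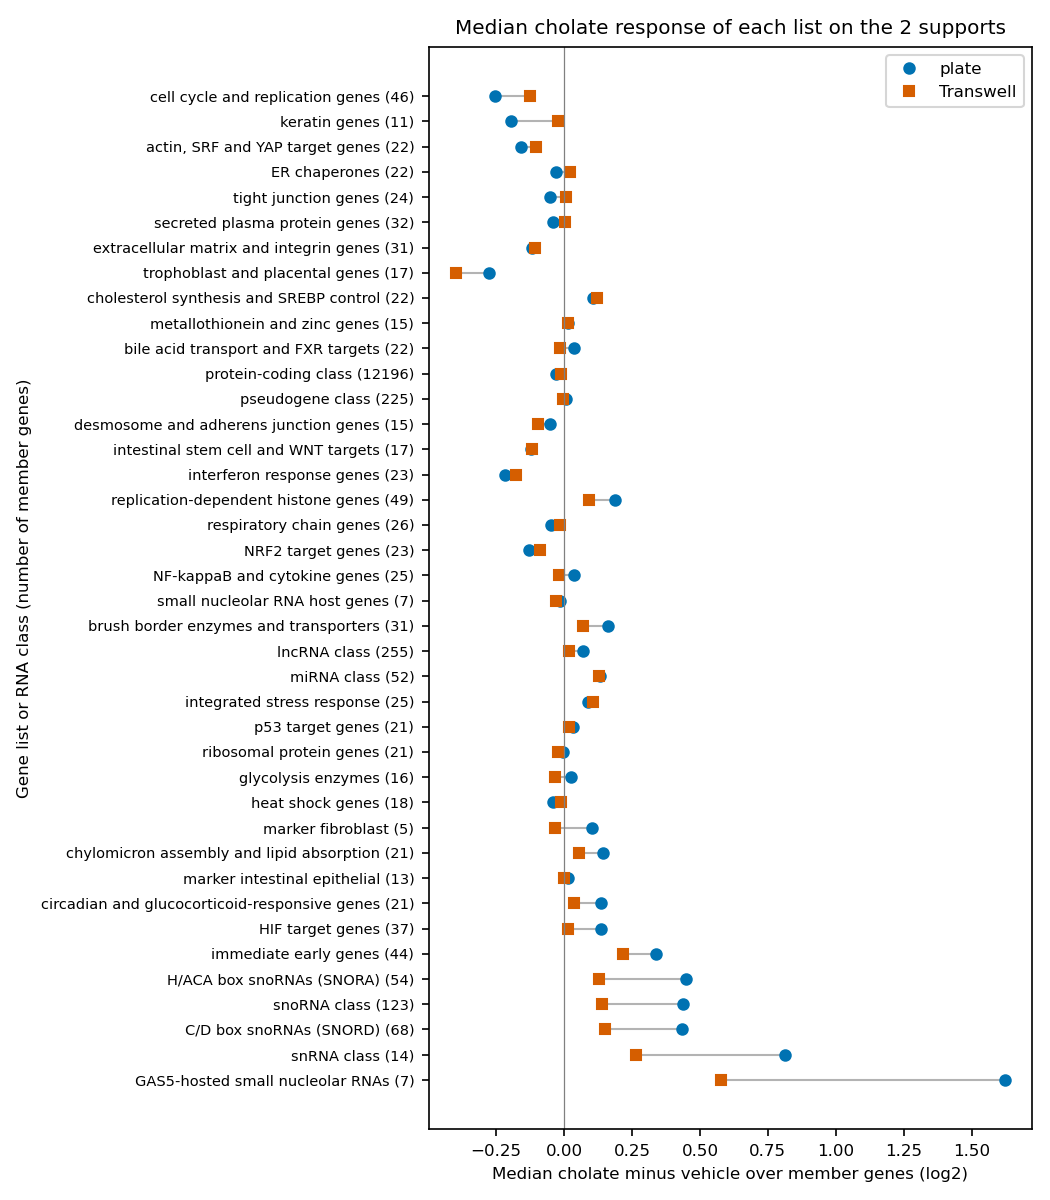
Median log2 response to cholate over the member genes of each list or RNA class on the plate (circles) and on Transwell (squares), with the number of genes in brackets. The GAS5-hosted small nucleolar RNAs (1.62 and 0.58), small nuclear RNAs (0.81 and 0.27) and immediate early genes (0.34 and 0.22) have the plate to the right, and cell cycle genes (-0.25 and -0.13) have it to the left.

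Where a gene had several features, they often differed. Among members 531 genes had more than 1 feature, and 464 had features with distinct values, whose differences of responses spanned a median of 0.118 log2 within a gene. Of these, 27 genes had at least 1 feature past 1.5-fold, and in 2 of the 27 all features were past it the same way. Those 2 were DPPA3 (0.85 and 0.70), a germ cell gene, and RNVU1-15. Of the 27, 16 had their called feature below 0, and in 11 of these it was not the brightest. In the 11 with it above 0, it was the brightest only in C4orf46, LOC100134868 and ZNF678, so dimmer called features occurred on both sides. The examples that follow are from below 0. TPT1, the translationally controlled tumour protein gene, had a feature that read 8.56, 9.51, 8.79 and 8.95 in plate vehicle, plate cholate, Transwell vehicle and Transwell cholate (-0.79), while its brightest feature stood at -0.05. ATF4, the main transcription factor of the integrated stress response, had -0.77 and -0.15. PTMA, prothymosin, had -0.71 and -0.04, EIF4A2, a translation initiation helicase gene, had -0.62 and -0.10, and TRA2A, a splicing regulator gene, had -0.62 and 0.16. Which part of each transcript a feature covers was not used here.

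Features outside the membership held more large differences. Of 6365 features above the floor with no or several gene symbols, 707 were at least 1.5-fold below 0 (11.1%) and 258 above (4.05%), with a median of -0.05, and at least 1 log2 below 0 lay 279 (4.38%). Among members, 12196 protein-coding genes had a median of 0.02 with 121 at least 1.5-fold below (0.992%) and 191 above (1.57%). The 255 long noncoding RNAs had a median of -0.02 but more large values both ways, with 13 at least 1.5-fold below (5.10%, against 1.46% of all genes) and 8 above (3.14%, against 1.59%). Of 225 pseudogenes 5 lay that far below and 5 above (2.22% each). LOC731157, a noncoding RNA, read 5.64, 8.04, 6.19 and 7.01, a difference of -1.56. VAMP1, a vesicle fusion protein gene, read 5.95, 7.57, 6.25 and 6.51, a difference of -1.36. Both were highest in plate cholate, as was GPR146 (4.64, 5.55, 5.02 and 4.67; -1.26), a G protein-coupled receptor gene, whereas CFAP144P1, a pseudogene (4.24, 5.60, 5.45 and 5.21; -1.60), was low in plate vehicle alone and under the floor there.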

How the data were processed

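Deposited values were log2 intensities, 1 for every feature of every array, from the RMA method, as the submitters' processing notes name it. RMA subtracts background, brings the arrays to a common distribution and combines the oligonucleotides of a feature. Its software, version and feature definition were not given in the sources used here. Such normalization removes a shift shared by most transcripts and compresses differences near background. Gene names came from the platform annotation: 19460 features had 1 symbol, 1754 had several and 12083 had none listed, and 19426 of the first were found in RefSeq on GRCh38.p14, which also gave RNA classes, intervals and sequences.

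The difference of responses was (Transwell cholate minus Transwell vehicle) minus (plate cholate minus plate vehicle), computed in Python 3.11.15 with pandas 2.3.3. The threshold of 1.5-fold or 1 log2 is one of size. Lists were counted with 1 row a gene, its feature with the highest mean. The design gives no test: 4 arrays, 1 for each condition. The number of arrays limits the precision. Alternatives were median centring, quantile and cyclic loess normalization (limma 3.58.1 in R 4.3.3), other floors, values under the floor raised to it, and 1 feature a gene.

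Members, lists and the rule for named genes were chosen with earlier results of these data known. The rule names the 15 highest and 15 lowest genes, up to 4 members of each list at least 1.5-fold from 0 with the largest values or else the largest, and some defining members. Genes named beyond it, such as further HIF, GAS5, histone and host pairs, HBEGF, DUSP6, XAGE3 and the genes with several features, were chosen after their values were seen.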

Additional observations from a re-analysis of the deposited data

Results flagged for a closer look

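MTLN (a difference of -1.42 log2) and ERVW-1 (-1.23) drew attention because cholate went with a higher value on the plate and a lower value on Transwell, each by at least 1.5-fold. The responses were 0.61 and -0.81 for MTLN and 0.59 and -0.65 for ERVW-1. The difference was not tested, since there is 1 array a condition.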

How the results depend on the processing

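The counts moved with the intensity floor. With no floor, 38 features were at least 1 log2 above 0, and 347 and 340 were at least 1.5-fold above and below. A plate array then stood apart in 78.8%. With the floor at the 60th percentile, 3 and 18 features were at least 1 log2 above and below 0, and 82 and 101 at least 1.5-fold above and below. The other counts, under normalization by median centring, quantiles or cyclic loess, with values under the floor raised to it, and with 1 feature a gene, stayed within 1.5 times the reported ones. Other floors and 1 feature a gene cannot change the value of a named gene, so they are no check on it. Under the other alternatives all 77 named genes past 1.5-fold kept their direction. With median centring and cyclic loess 76 stayed past it, and 75 with quantile normalization and with values raised to the floor. The largest shift, 0.952 log2, was that of IFT70B when values under the floor were raised to it. List medians at least 0.1 log2 from 0 changed sign under none of the alternatives run. The sign of medians nearer 0 was less stable: of 40 lists, 10 changed sign under median centring, 6 under quantile normalization and 3 under cyclic loess. With no floor 3 of 40 did, and 7 of 38 with the floor at the 60th percentile. No paired analysis was possible because each condition has 1 array and the labels carry no replicate numbers. With RNA pools in place of replicates, no spread between cultures bears on any value, and values near the floor have no reliable order.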
